A study of Mus musculus with 16 samples.

Results

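Primary chondrocytes that carry a gain-of-function Notch2 allele were exposed to tumor necrosis factor α (TNFα), and their transcripts were compared with those of the same cells given vehicle. The libraries were chosen by their labels: genotype Notch2 mutant, treated with TNFα or with vehicle, which gave 8 of the 16 RNA-seq libraries of the series, 4 per treatment. The other 8 libraries hold control cells under the same treatments and enter only where the response of the 2 genotypes is compared.

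The cells were chondrocyte-enriched cultures from the epiphyseal cartilage of fore and hind limb long bones of mice 3 to 4 days of age, grown in monolayer with serum. The mutant mice were heterozygous for Notch2tm1.1Ecan, a global knock-in of a stop codon ahead of the PEST domain that shortens NOTCH2 and slows its degradation, and the controls were littermates. One wildtype Notch2 allele remained in every mutant cell, and the counts add the transcripts of both alleles. Cells of male and female mice were pooled, each library is labelled a biological replicate, and which litters a library drew on is not given in the labels. The mutant vehicle group received PBS for 6 h (0 ng/ml TNFα, n = 4) and the mutant TNFα group 50 ng/ml TNFα for 6 h (n = 4). The treatment label states that serum was withdrawn in the TNFα groups only, whereas the study's own description has both groups without serum. If the label holds, the effect of TNFα and that of serum withdrawal cannot be told apart in any comparison below.

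TNFα binds a trimeric receptor at the cell surface, and adaptor and kinase complexes then release NF-κB dimers from their IκB inhibitors, so that NF-κB enters the nucleus and induces chemokines, adhesion molecules and its own inhibitors. The same receptor also activates the JNK and p38 kinases, and interferon regulatory factors induced in a first wave can drive a later wave of interferon-type genes. In cartilage TNFα is known for inducing matrix-degrading proteases and for lowering the expression of matrix genes.

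Counts assigned to genes were 14781440, 19925916, 19382933 and 44237300 in vehicle libraries 1 to 4 and 14987109, 16968941, 17155897 and 3439726 in TNFα libraries 1 to 4. TNFα library 4 was the shallowest, and in it a gene with 3 counts stood at 0.828 CPM (counts scaled to a library size of 1000000), compared with 0.207 CPM in the shallowest vehicle library. All levels below are CPM scaled by trimmed mean of M-values (TMM), all values per library are listed in the order of replicates 1 to 4, and the ± after a log2 fold change is its standard error. In bulk RNA, fewer cells of a type and less RNA per cell cannot be told apart. Markers of the labelled cell type were abundant: all 17 chondrocyte markers listed were tested, none was at 0, and their summed level ran from 32478 to 37702 CPM in vehicle and from 20481 to 23356 CPM in TNFα libraries, led by Col2a1, the main cartilage collagen. The cultures also held abundant fibroblast and perichondrium transcripts, with a sum from 40579 to 43802 CPM in vehicle and from 38684 to 47417 CPM in TNFα libraries, led by Col1a1.

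TNFα changed 2720 of the 19633 genes tested (13.9%). Of these 1807 were higher after TNFα (9.20% of genes tested) and 913 were lower (4.65%), at an adjusted p under 0.05 and at least a 2-fold change. All p-values below are from the quasi-likelihood test of edgeR, adjusted over all genes tested by the Benjamini-Hochberg method. Such genes are said to be called below, and "rose" and "fell" are used of them alone. The 4 TNFα values lay wholly above or wholly below the 4 vehicle values in 2344 of the called genes, and in 7902 of all genes tested (40.2%). By the fitted values 300 genes rose and 68 fell by 4 or more on the log2 scale, and 25 rose by 8 or more. Of the called genes, 329 that rose had 3 counts or fewer in every vehicle library and 173 that fell had 3 or fewer in every TNFα library, where a fold is only a bound. With these genes set at their bound, 181 rose and 5 fell by 4 or more, and 6 rose by 8 or more. The bound is stricter for falls, as the floor was 0.828 CPM in TNFα and 0.207 CPM in vehicle libraries. These counts therefore do not compare rises with falls on an equal footing. The genes that rose took 1.95% to 2.02% of all counts in vehicle libraries and 8.82% to 9.13% in TNFα libraries, and the genes that fell took 8.54% to 8.71% and 2.85% to 2.91%. Treatment separated the libraries on the first principal component of 10909 genes, which held 91.5% of the variance, and TNFα library 4 stood apart from the other 7 on the second, which held 3.53%. Vehicle library 1 stood apart on the third (2.53%), and its chi-square per degree of freedom against the other vehicle libraries was 9.99 to 11.7, where those had 3.08 to 3.77 among themselves. Without it 2705 genes were called.

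**Figure D1:**
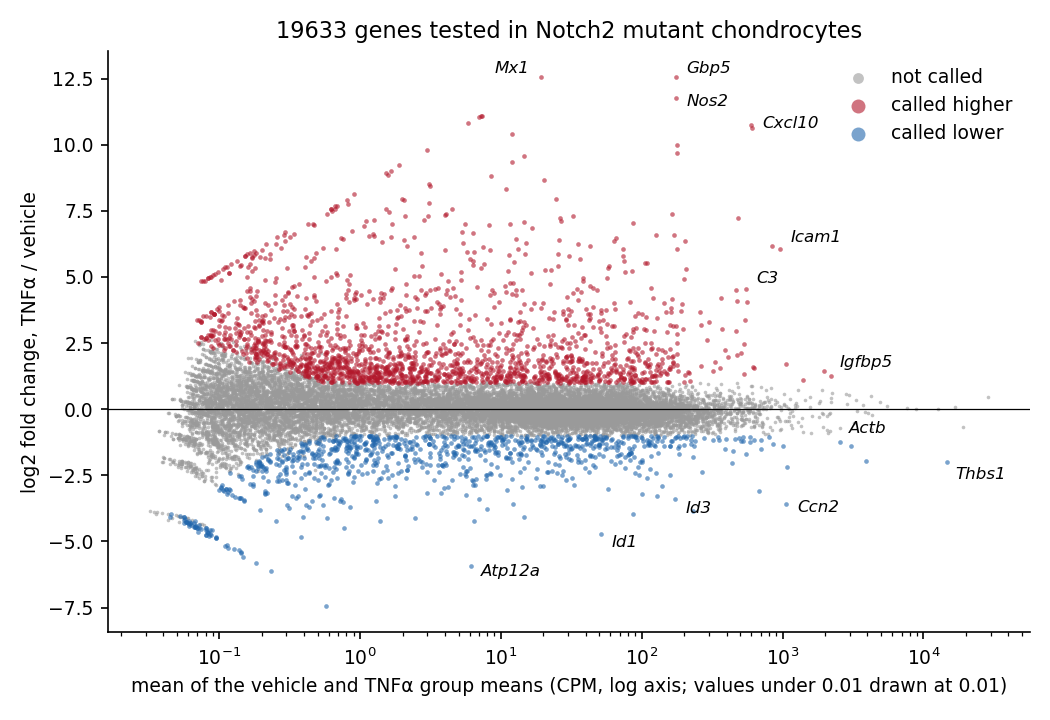
Each point is 1 of the 19633 genes tested in Notch2 mutant chondrocytes, with the mean of the vehicle and TNFα group means (CPM, log axis) on the x axis and the log2 fold change on the y axis, in red where called higher, blue where called lower and grey otherwise. The 1807 genes that rose reach larger changes than the 913 that fell, and the thin diagonal bands at the left are genes with no count in 1 of the groups.

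The genes taken to mark the response were Gbp2, an interferon-inducible GTPase, Icam1, an adhesion molecule for leukocytes, Cxcl9, a chemokine that attracts T cells, Saa3, an acute-phase protein, and C3, the central complement component. Gbp2 was at 5.51, 6.62, 6.59 and 6.88 CPM in the vehicle libraries and 965, 961, 988 and 947 CPM in the TNFα libraries. It rose by 7.22 ± 0.08 on the log2 scale (adjusted p = 2.48e-29), and no TNFα value came near a vehicle value. Icam1 was at 29.8, 26.9, 27.2 and 28.4 CPM in the vehicle libraries and 1930, 1855, 1812 and 1929 CPM in the TNFα libraries, a log2 fold change of 6.07 ± 0.07 (adjusted p = 2.87e-29). Among called genes Icam1 had the largest gain in CPM. C3 was already measurable in vehicle, at 46.6, 47.3, 44.5 and 45.2 CPM in the vehicle libraries and 1067, 1018, 1078 and 1063 CPM in the TNFα libraries, and rose by 4.53 ± 0.064 (adjusted p = 2.02e-27). Cxcl9 was low in vehicle, at 0.138, 0.308, 0.519 and 0.368 CPM in the vehicle libraries and 352, 348, 375 and 353 CPM in the TNFα libraries, with a log2 fold change of 9.97 ± 0.12 (adjusted p = 5.21e-29). Saa3 behaved in the same way, at 0.413, 0.41, 0.726 and 0.299 CPM in the vehicle libraries and 390, 353, 332 and 344 CPM in the TNFα libraries, with a log2 fold change of 9.68 ± 0.13 (adjusted p = 3.6e-28). For all 5 the groups were far apart and TNFα library 4 lay with the other 3 in spite of its depth. Scaled by length, Icam1 and Gbp2 reached nearly the same level after TNFα, 379 and 377 RPKM (reads scaled by exon length and depth), from 5.65 and 2.5 RPKM in vehicle.

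**Figure D2:**
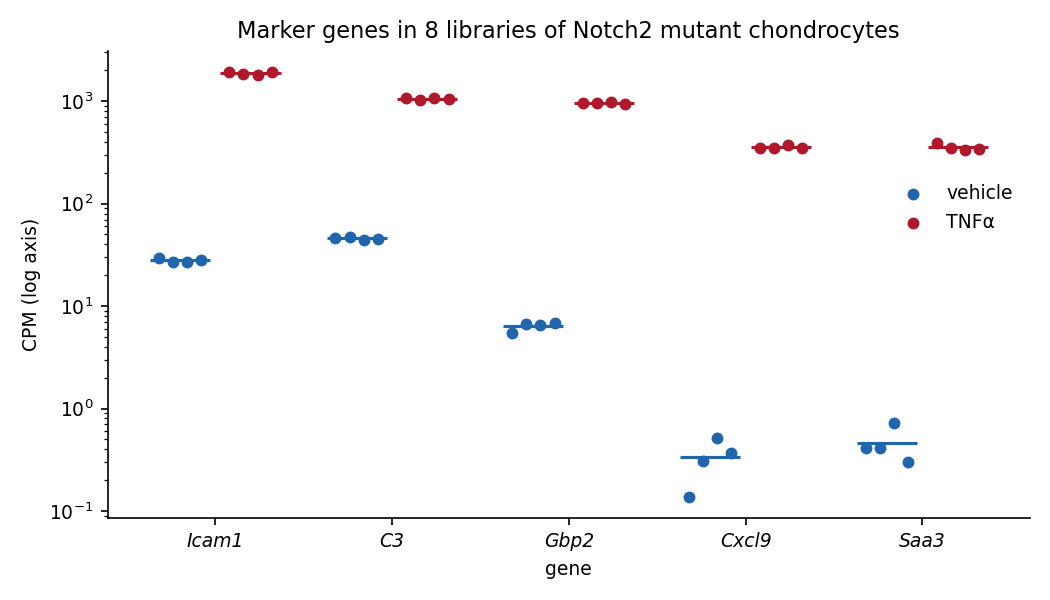
CPM on a log axis of the 5 marker genes in each of the 8 Notch2 mutant libraries, vehicle in blue and TNFα in red, with a line at the group mean. The TNFα libraries of Cxcl9 and Saa3 sit about 3 decades above the vehicle libraries, and those of C3 between 1 and 2 decades above.

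Promoter sequences of these genes and of 4 more that rose (Cxcl10, Gbp5, Nfkbia and Rsad2, the last not shown) were read from RefSeq and placed on GRCm39 by exact match, as the 250 bases before the start site. Matches to 4 motifs were searched on both strands, with R for A or G, Y for C or T and N for any base. They were the NF-κB consensus known as the κB motif (GGGRNNYYCC) and the interferon-stimulated response element (ISRE, the letters GAAA repeated after any 2 bases). The gamma-activated site (GAS, TTCNNNGAA) and the AP-1 site (TGANTCA) were the others. No motif's matches overlapped those of another in the sequences shown, and capitals mark the matches. The sequences below are those of the genes with the matches that the paragraph goes on to count, written 5′ to 3′ on the strand of the gene.
Cxcl10 (chr5:92496749-92496998, minus strand): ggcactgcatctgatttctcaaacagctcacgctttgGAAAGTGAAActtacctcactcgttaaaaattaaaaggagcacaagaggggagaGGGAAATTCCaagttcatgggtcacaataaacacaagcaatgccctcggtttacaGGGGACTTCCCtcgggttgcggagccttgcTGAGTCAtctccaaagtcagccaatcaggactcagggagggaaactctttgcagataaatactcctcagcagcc
Gbp5 (chr3:142202445-142202694, plus strand): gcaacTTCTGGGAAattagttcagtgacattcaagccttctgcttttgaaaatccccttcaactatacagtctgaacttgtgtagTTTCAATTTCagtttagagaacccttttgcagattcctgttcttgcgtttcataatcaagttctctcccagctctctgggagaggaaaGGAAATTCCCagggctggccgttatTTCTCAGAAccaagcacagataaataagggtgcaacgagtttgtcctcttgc
Nfkbia (chr12:55539433-55539682, minus strand): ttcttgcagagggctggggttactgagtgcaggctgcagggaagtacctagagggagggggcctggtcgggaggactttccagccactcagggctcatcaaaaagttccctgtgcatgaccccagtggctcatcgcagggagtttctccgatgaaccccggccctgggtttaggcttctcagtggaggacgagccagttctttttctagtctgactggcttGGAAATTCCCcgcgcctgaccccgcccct
Gbp2 (chr3:142326174-142326423, plus strand): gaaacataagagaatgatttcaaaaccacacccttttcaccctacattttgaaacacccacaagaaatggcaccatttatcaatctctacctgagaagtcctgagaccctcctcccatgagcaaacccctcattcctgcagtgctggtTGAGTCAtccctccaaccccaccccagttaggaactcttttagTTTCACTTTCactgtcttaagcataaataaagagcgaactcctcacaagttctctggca
Saa3 (chr7:46365101-46365350, minus strand): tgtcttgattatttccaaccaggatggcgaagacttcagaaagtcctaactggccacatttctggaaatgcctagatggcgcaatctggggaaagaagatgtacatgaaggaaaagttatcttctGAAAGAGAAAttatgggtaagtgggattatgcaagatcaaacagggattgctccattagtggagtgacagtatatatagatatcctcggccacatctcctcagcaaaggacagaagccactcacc
Icam1 (chr9:20926986-20927235, plus strand): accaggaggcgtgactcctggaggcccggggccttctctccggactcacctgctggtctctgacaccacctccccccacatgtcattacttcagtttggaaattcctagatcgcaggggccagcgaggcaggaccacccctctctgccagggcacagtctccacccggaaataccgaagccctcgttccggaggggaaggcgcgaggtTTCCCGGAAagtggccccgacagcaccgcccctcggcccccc
Cxcl10, a chemokine of the interferon response, had κB matches that began 159, 104 and 103 bases before its start site, the last 2 of which overlap, with an ISRE match at 213 and an AP-1 match at 74. Gbp5, an inflammasome-associated GTPase, had a κB match at 77, an ISRE match at 165 and GAS matches at 245 and 52 bases. The promoter of Nfkbia, which encodes the inhibitor IκBα, held a κB match at 29 bases, that of Gbp2 an ISRE match at 59 and an AP-1 match at 102, that of Saa3 an ISRE match at 125 and that of Icam1 a GAS match at 42. That of Rsad2, which encodes the antiviral protein viperin, had an ISRE match at 120 and an AP-1 match at 87. No match to these letters lay in the same windows of Cxcl9 and C3. Stretches that depart from the letters were not counted, such as tggaaattcc in the Icam1 window, which differs from the κB letters in its first base. Over all 32851 RefSeq promoters of this length, 7.25% held a κB match, 2.98% an ISRE match, 7.02% a GAS match and 6.75% an AP-1 match. Over the 15891 promoters of genes tested these shares were 9.08%, 2.61%, 5.83% and 5.08%. Of the genes called, 1204 that rose and 602 that fell had a RefSeq promoter. An ISRE match was held by 6.9% of the promoters of genes that rose and by 1.53% of those of genes that fell, a κB match by 12.7% and 9.95%, a GAS match by 7.6% and 5.1% and an AP-1 match by 8.69% and 7.02%. Among the 216 promoters of genes that rose by a fitted 4 or more on the log2 scale the shares were 19.4% for ISRE, 19.9% for κB, 11.1% for GAS and 11.1% for AP-1. These shares describe letters in a window and were given no test.

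Of 19 NF-κB subunits and inhibitors tested, 14 rose and none fell, with a median log2 fold change of 2.39, beside 0.026 over all genes tested. The inhibitor Nfkbie went from 4.7 to 213 CPM (5.53), and Tnip3, an A20-binding protein with at most 3 counts in any vehicle library, reached 4.09 CPM after TNFα. Tnfaip3 encodes A20, an enzyme that edits ubiquitin chains and shuts NF-κB off, and it was at 3.44, 4.1, 3.58 and 4.65 CPM in the vehicle libraries and 147, 143, 136 and 170 CPM in the TNFα libraries. Its groups did not overlap, and its log2 fold change was 5.18 ± 0.10 (adjusted p = 6.98e-25). Nfkbia was at 22.1, 24.8, 23.1 and 22.6 CPM in the vehicle libraries and 358, 359, 339 and 398 CPM in the TNFα libraries, with a log2 fold change of 3.97 ± 0.071 (adjusted p = 3.14e-25), again with no overlap. The subunits Relb (3.63) and Nfkb2 (2.86), of the noncanonical arm, and Rela (1.59) and Nfkb1 (1.26), of the canonical arm, rose, and Rel went from 10.8 to 10.8 CPM (adjusted p = 0.702). The kinase subunit Chuk had a log2 fold change of -0.49, within the 2-fold limit. Of 21 TNF receptors and adaptors, 5 rose and none fell. Traf1, an adaptor induced by NF-κB, went from 1.09 to 39.7 CPM (5.25), and Birc3, an inhibitor of apoptosis that ubiquitinates RIPK1, from 7.81 to 104 CPM (3.75). The receptors themselves had small changes, with Tnfrsf1a from 218 to 178 CPM (-0.29) and Tnfrsf1b from 71.3 to 98.3 CPM (0.48).

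Chemokines were among the genes with the largest rises. Of 14 CXC and CX3C chemokines tested, 10 rose and 1 fell, with a median log2 fold change of 4.10. Of 16 CC chemokines tested, 13 rose and none fell, with a median of 3.10, or 2.37 with genes below detection in vehicle set at their bound. Cxcl10 was at 0.551, 0.462, 1.97 and 0.414 CPM in the vehicle libraries and 1165, 1190, 1198 and 1323 CPM in the TNFα libraries, a log2 fold change of 10.62 ± 0.30 (adjusted p = 4.04e-08). Ccl5, which attracts T cells and monocytes, was at 0.413, 0.359, 1.45 and 0.575 CPM in the vehicle libraries and 1106, 1131, 1147 and 1406 CPM in the TNFα libraries, a log2 fold change of 10.76 ± 0.23 (adjusted p = 1.4e-10). Ccl2, which attracts monocytes, was at 20, 23.8, 26.4 and 21.7 CPM in the vehicle libraries and 1565, 1592, 1469 and 2006 CPM in the TNFα libraries, a log2 fold change of 6.17 ± 0.12 (adjusted p = 1.9e-14). In each of these 3 the groups did not overlap, and TNFα library 4 held the highest value. Cxcl11 had no count in any vehicle library and stood at 6.42, 5.32, 6.02 and 6.07 CPM after TNFα, at least 28.8-fold above the floor, here the highest value that 3 counts take in a vehicle library. The neutrophil chemoattractants Cxcl1 and Cxcl5 went from 1.18 to 84.5 CPM (6.15) and from 18.6 to 155 CPM (3.04). The single chemokine that fell was Cxcl14, from 45.4 to 14.6 CPM (-1.67), and Cxcl12, the most abundant one in vehicle in CPM, had a log2 fold change of -0.43, within the 2-fold limit.

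Of 22 cytokines tested, 16 rose and 2 fell, with a median log2 fold change of 2.31, or 1.22 with bounds. Most of those that rose stayed at low levels. Tnf itself went from 0.204 to 7.29 CPM (5.10), and Il15, which sustains T and NK cells, from 0.988 to 10.8 CPM (3.40). Il6 was at 0.482, 0.513, 0.467 and 0.552 CPM in the vehicle libraries and 1.06, 1.64, 2.51 and 1.38 CPM in the TNFα libraries, a log2 fold change of 1.73 ± 0.33 (adjusted p = 0.000103), so that its groups were apart but its highest value was 2.51 CPM. Il1b had no count in any vehicle library and was at 1.13, 0.526, 0.234 and 0.828 CPM after TNFα, at least 3.28-fold above the floor of 3 counts. Tnfrsf11b, which encodes osteoprotegerin, the decoy receptor that restrains osteoclasts, fell from 266 to 100 CPM (-1.40), and its ligand Tnfsf11 (RANKL) went from 1.8 to 3.43 CPM, a log2 fold change of 1.00, at the 2-fold limit itself (adjusted p = 0.000409). Csf1, the most abundant cytokine of the list in CPM, had a log2 fold change of 0.30, within the limit.

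Interferon-type genes rose with few exceptions. All 18 guanylate-binding proteins and immunity-related GTPases tested rose, with a median log2 fold change of 6.99 (5.37 with bounds), as did 25 of 26 interferon-stimulated antiviral genes (median 5.57) and all 20 genes of MHC class I antigen presentation (median 3.30). Gbp5 was at 0, 0.103, 0.0519 and 0.046 CPM in the vehicle libraries and 335, 345, 367 and 352 CPM in the TNFα libraries, with every vehicle library at or below the floor (adjusted p = 2.48e-29). Its mean after TNFα was 1693 times the vehicle floor. Mx1, of the list of antiviral genes, had no count in vehicle and was at 43.6, 38.4, 44.2 and 27.6 CPM after TNFα, at least 186-fold above the floor. The lowest of these values was that of library 4. Isg15, a ubiquitin-like modifier, was at 6.13, 3.85, 5.86 and 3.06 CPM in the vehicle libraries and 216, 226, 206 and 169 CPM in the TNFα libraries, a log2 fold change of 5.54 ± 0.21 (adjusted p = 6.68e-08), and its groups did not overlap. Ifit3 (6.37) and Ifit1 (6.58), which bind foreign RNA, Rsad2 (7.31), which makes a chain-terminating nucleotide, and Oasl2 (6.60) rose with them. Isg20, a nuclease, was the exception at 0.46. Rnf213, a ubiquitin ligase of antimicrobial defence, went from 64.1 to 1054 CPM (4.04). By fitted fold change the 12 largest rises also held Slamf8, Heatr9, Ccl19-ps6 and Tgtp2, which had no count in any vehicle library. They stood at least 70.2-fold, 70.8-fold, 67.7-fold and 56.7-fold above the floor, and as these are bounds their rank is uncertain. Acod1, which makes itaconate, was also among the 12, at 22.9, 21.6, 22.6 and 28.4 CPM after TNFα. In antigen presentation, the immunoproteasome subunits Psmb9 (5.86) and Psmb8 (5.79) had larger log2 fold changes than the heavy chains H2-K1 (2.96) and H2-D1 (2.06) and the light chain B2m, which went from 306 to 937 CPM (1.61). Of 15 IRF and STAT factors, 7 rose and none fell, among them Irf7 (5.22), Irf1 (4.16), Stat2 (3.17), Irf5 (2.46), Irf9 (2.16) and Irf2 (1.40). Stat3, an IL6 signal transducer, was at 0.17. Interferon-stimulated genes often occur as near-identical neighbours (Tgtp1 and Tgtp2, Gbp6 and Gbp10, Ifit3 and Ifit3b, the H2-Q genes), and how reads that match several copies were counted is not given in the sources used here, so their separate values are uncertain.

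Some of the genes that rose lay next to each other on the chromosomes. There were 29 runs of 4 or more neighbouring tested genes that all rose, 168 genes in all. The longest were 11 genes on chromosome 1 from Ifi206 to Ifi205 (GRCm39 chr1:173296051-173859456, median log2 fold change 4.51, or 3.52 with genes below detection in vehicle at their bound), the Ifi200 family of nucleic acid sensors, and 11 on chromosome 7 from Trim6 to Gm16464 (chr7:103868000-104157107, median 3.77, 3.46 with bounds), which hold the Trim5 and Trim30 restriction factors. The last of these, Gm16464 (1.38), lost its call without TNFα replicate 3 and with all libraries thinned to the shallowest. A run of 10 genes on chromosome 11 from Irgm1 to Ifi47 (chr11:48752795-49026214, median 5.47, 3.59 with bounds) held immunity-related GTPases. Psme2b and Or2v1, which are not of that family, also stood in it. The guanylate-binding proteins gave 6 genes on chromosome 5 from Gbp8 to Gbp11 (chr5:105162016-105494338, median 7.54, 4.55 with bounds). Psmb9, Tap1, Psmb8 and Tap2 opened a run of 7 on chromosome 17 (chr17:34400960-34506798, median 4.14, 3.45 with bounds), and Ccl2, Ccl7, Ccl12 and Ccl8 stood in a run of 6 on chromosome 11 (chr11:81870419-82338461, median 4.65, 3.58 with bounds). Many members of these runs are copies of each other, so they do not count as separate observations.

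Other inflammatory effectors rose in part. Of 14 genes of leukocyte adhesion and costimulation, 8 rose and none fell (median 1.67), among them Vcam1, a ligand of integrin α4, from 39.5 to 890 CPM (4.49), Icosl, a costimulator of T cells, from 1.29 to 173 CPM (7.03), and Cd274, which encodes PD-L1, from 1.18 to 24.6 CPM (4.30). Nos2, the inducible nitric oxide synthase, was at 0.138, 0.0513, 0.311 and 0 CPM in the vehicle libraries and 341, 297, 321 and 444 CPM in the TNFα libraries, a log2 fold change of 11.76 ± 0.34 (adjusted p = 1.71e-08), with library 4 the highest. Of the 14 nitric oxide and prostaglandin genes it belongs to, 5 rose and 2 fell. Ptges, a prostaglandin E synthase, went from 25.2 to 83.4 CPM (1.73), while the cyclooxygenase Ptgs2 went from 10.3 to 6.58 CPM, a log2 fold change of -0.71 that did not reach the 2-fold limit (adjusted p = 4.73e-05). Of 20 pattern recognition receptors, 9 rose and none fell (median 1.03, 0.77 with bounds), led in level by Tlr2, a receptor for lipoproteins, from 12.6 to 386 CPM (4.94). Of 20 complement genes, 8 rose (median 0.51), and C1s1 (1.99) and Cfb (3.99) rose beside C3. Of 17 acute-phase genes, 12 rose (median 2.23, 1.30 with bounds), including Lcn2, an iron-sequestering protein, from 20.7 to 83 CPM (2.01), and Ptx3, from 892 to 1919 CPM (1.11). Among 15 genes of oxidative stress and metal handling, 3 rose, where 9.20% of all genes tested did: Mt2 (3.70), Sod2 (2.09) and Mt1 (1.62).

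**Figure D3:**
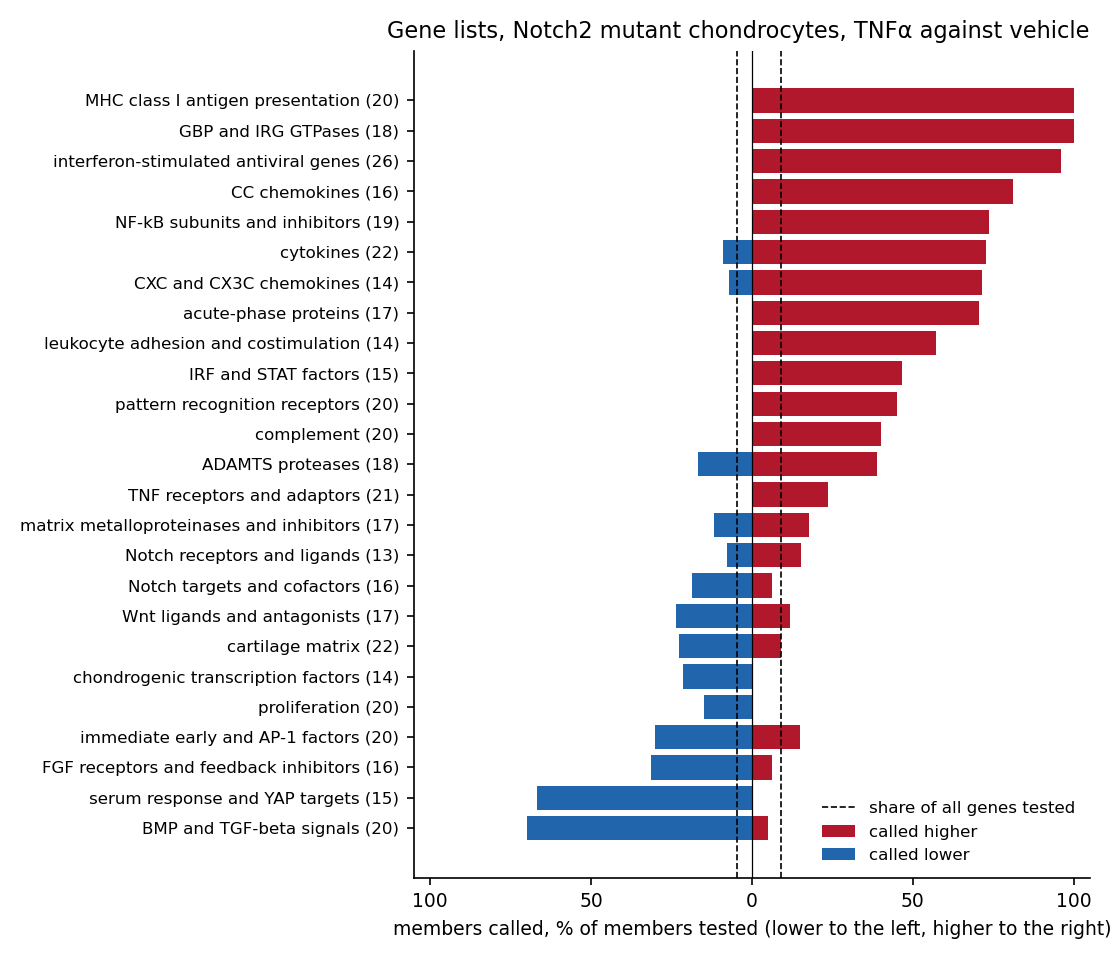
Share of the tested members of 25 gene lists that were called higher (red, to the right) or lower (blue, to the left) after TNFα in Notch2 mutant chondrocytes, with the number tested in parentheses and dashed lines at the shares of all genes tested, 9.20% and 4.65%. Immune lists extend to the right up to 100%, and the lists of BMP and TGF-β signals and of serum response genes extend furthest to the left.

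Matrix proteases changed in both directions. Of 17 matrix metalloproteinases and inhibitors, 3 rose and 2 fell (median 0.27), where 9.20% of all genes tested rose and 4.65% fell. Mmp13, the collagenase of cartilage, was at 38.2, 52.2, 57.2 and 59.8 CPM in the vehicle libraries and 472, 489, 467 and 476 CPM in the TNFα libraries, a log2 fold change of 3.19 ± 0.11 (adjusted p = 6.8e-11). Mmp3, stromelysin, was at 17.4, 17.3, 16.3 and 16.4 CPM in the vehicle libraries and 302, 277, 257 and 248 CPM in the TNFα libraries, a log2 fold change of 4.01 ± 0.075 (adjusted p = 6.79e-25). Neither gene had overlapping groups. Mmp9, a gelatinase, went from 1.6 to 43 CPM (4.73). The inhibitor Timp3, bound to matrix, was at 5901, 6301, 6397 and 6344 CPM in the vehicle libraries and 1622, 1703, 1614 and 1476 CPM in the TNFα libraries and fell by 1.96 ± 0.059 on the log2 scale (adjusted p = 2.02e-20). Of 18 ADAMTS proteases, 7 rose and 3 fell (median 0.28). The aggrecanase Adamts4 went from 14.8 to 34.4 CPM (1.28), and Adamts5, the other main aggrecanase, from 269 to 175 CPM, a log2 fold change of -0.62 within the 2-fold limit (adjusted p = 1.03e-08). Adamts15 (3.73) and Adamts7 (3.60) rose, and Adamts9 (-2.20), Adamts1 (-1.46) and Adamts3 (-2.66) fell.

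Cartilage matrix genes were mostly lower, with few past the 2-fold limit. Of 22 tested, 5 fell and 2 rose, where 4.65% of all genes tested fell and 9.20% rose. Another 12 had a lower level at an adjusted p under 0.05 without a 2-fold change, as did 17.3% of all genes tested (median -0.64). Col2a1 was at 26455, 22466, 22344 and 23897 CPM in the vehicle libraries and 15332, 14780, 15266 and 13472 CPM in the TNFα libraries, a log2 fold change of -0.69 ± 0.062 (adjusted p = 3.39e-10), with no overlap. Acan, the core protein of aggrecan, was at 1055, 1038, 971 and 1099 CPM in the vehicle libraries and 381, 356, 380 and 366 CPM in the TNFα libraries and fell by 1.49 ± 0.058 on the log2 scale (adjusted p = 7.57e-18). Hapln1 (-1.52), the link protein that ties aggrecan to hyaluronan, Matn3 (-1.60), Col27a1 (-1.39) and Snorc (-1.32) also fell, whereas Cilp2 (3.50) and Cilp (2.80) rose. The call of Snorc was lost with all libraries thinned to the shallowest (-0.72). Comp, the most abundant of the list after Col2a1 in CPM, went from 3464 to 3300 CPM (adjusted p = 0.382). Of 14 chondrogenic transcription factors, 3 fell and none rose (median -0.50). Sox9, the master factor of chondrocytes, was at 156, 154, 155 and 170 CPM in the vehicle libraries and 39.2, 40.7, 40.9 and 50.5 CPM in the TNFα libraries, a fall by 1.92 ± 0.073 on the log2 scale (adjusted p = 3.3e-18), again without overlap. Its partners Sox5 (-0.34) and Sox6 (-0.46) did not reach the limit, and Runx2 (-1.86) and Mef2c (-1.12, with -0.94 and no call after thinning to the shallowest library), factors of hypertrophy, fell. Among 13 genes of hypertrophy and mineralization 3 fell, Sp7 (-4.23), Panx3 (-3.15) and Pth1r (-1.40), while Col10a1 went from 65.5 to 64.4 CPM (adjusted p = 0.936). Of 12 genes of the joint surface, the hyaluronan synthase Has1 (1.26) rose, and Has2 (-1.21) and the growth factor Gdf6 (-2.45) fell (median -0.079). The call of Has1 was lost without TNFα replicate 1 (1.06) and with all libraries thinned to the shallowest (1.24). Prg4, which encodes lubricin, went from 202 to 388 CPM, a log2 fold change of 0.95 that did not reach the limit (adjusted p = 1e-12).

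Falls were frequent among growth factor signals. Of 20 BMP and TGF-β genes, 14 fell and 1 rose, with a median log2 fold change of -1.34. Id1, a target of BMP signals that blocks differentiation, was at 106, 96.1, 98.2 and 98.4 CPM in the vehicle libraries and 3.18, 4.09, 3.68 and 4.97 CPM in the TNFα libraries, and fell by 4.72 ± 0.10 on the log2 scale (adjusted p = 5.78e-24). Id3 was at 354, 301, 293 and 308 CPM in the vehicle libraries and 31, 30.2, 28 and 30.9 CPM in the TNFα libraries, and fell by 3.39 ± 0.075 (adjusted p = 2.16e-23). Both had their groups far apart. The ligands Tgfb3 (-2.36), Bmp4 (-2.26), Inhba, Bmp5 (-1.52), Bmp7 (-1.15) and Tgfb2 (-1.07) fell, as did the antagonists Nog (-2.37) and Fst (-1.14) and the inhibitory Smad6 (-1.99) and Smad7 (-1.12). Bmp7 did not keep its call without TNFα replicate 1 (-0.96) or with all libraries thinned to the shallowest (-0.58). Bmp2, a bone-inducing ligand, was the 1 gene of the list that rose, from 5.49 to 31.6 CPM (2.48). Of 15 serum response and YAP targets, 10 fell, none rose, and the other 5 were lower within the 2-fold limit (median -1.29). Ccn2, a matricellular protein induced by TGF-β, YAP and serum, was at 1850, 2086, 2010 and 1925 CPM in the vehicle libraries and 158, 169, 159 and 178 CPM in the TNFα libraries, and fell by 3.57 ± 0.065 (adjusted p = 4.54e-25). Thbs1, thrombospondin 1, had the largest loss in CPM, at 23635, 24722, 22770 and 22928 CPM in the vehicle libraries and 5619, 5849, 5996 and 6014 CPM in the TNFα libraries, and fell by 2.00 ± 0.056 (adjusted p = 3.29e-21). Vcl (-2.02) and Srf (-1.29), the serum response factor, fell, and so did Actb, from 3610 to 1535 CPM (-1.23), a gene often used as a reference. Serum is known to induce many of these genes. The treatment label and the study's own description conflict over whether the vehicle cells had serum, and its part in the result was not tested. Among 20 immediate early genes 3 rose and 6 fell, where 9.20% of all genes tested rose and 4.65% fell. Fos (-2.42) and Egr1 (-1.17) were lower and Junb (1.00, at the 2-fold limit) higher. The others that rose were, like Egr1, of the Egr family, and the largest rise was 2.08.

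**Figure D4:**
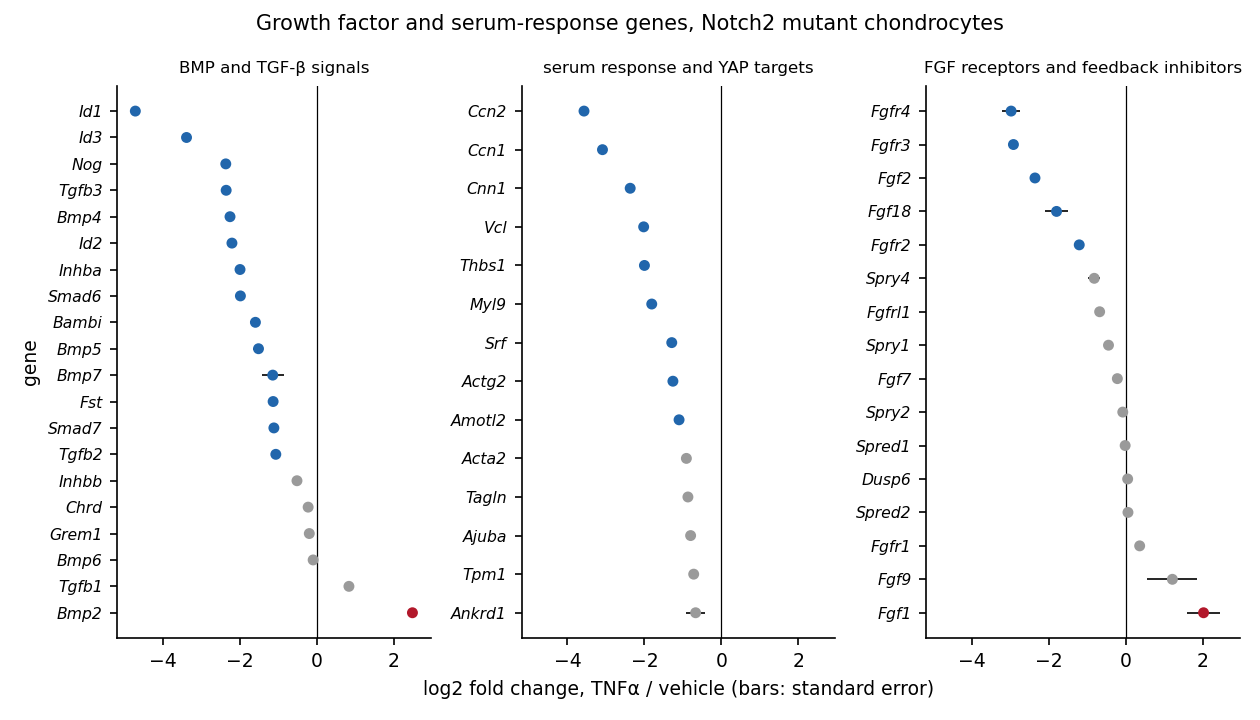
Log2 fold change after TNFα in Notch2 mutant chondrocytes (x axis, bars for the standard error) of genes (y axis) in the lists of BMP and TGF-β signals, serum response and YAP targets, and FGF receptors and feedback inhibitors, with called genes in blue (lower) or red (higher). Id1 has the largest fall, at -4.72, and every serum response gene drawn lies left of 0.

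FGF and Wnt genes fell in part. Fgfr3, the receptor that restrains growth plate chondrocytes, was at 269, 227, 231 and 261 CPM in the vehicle libraries and 31.2, 32.3, 31.9 and 37 CPM in the TNFα libraries, and fell by 2.92 ± 0.075 on the log2 scale (adjusted p = 6.18e-22). Of the 16 FGF receptors, ligands and feedback inhibitors, 5 fell and 1 rose (median -0.34), and Fgfr2 (-1.21) and Fgf2 (-2.36) fell beside Fgfr3 while Fgfr1 had a log2 fold change of 0.36. Of 17 Wnt ligands and antagonists, 4 fell and 2 rose (median -0.37), where 4.65% of all genes tested fell and 9.20% rose. Of 20 proliferation genes, Ccne2 (-1.42), Ccne1 (-1.14) and Mcm2 (-1.04), which act at the entry into DNA replication, fell, and another 15 had a lower level at an adjusted p under 0.05 without a 2-fold change, against 17.3% of all genes tested (median -0.69). Mcm2 was at the limit and lost its call without vehicle replicate 1 (-0.99) and without TNFα replicate 4. Mki67, one of the 2 that did not pass, went from 280 to 262 CPM (adjusted p = 0.535). Of 20 genes of sterol and fatty acid synthesis, Scd1, a fatty acid desaturase, alone was called, from 282 to 131 CPM (-1.10). Further large falls, outside the lists, were those of Atp12a, a proton pump, from 12 to 0.204 CPM (-5.92), Dio3, which inactivates thyroid hormone, from 27.6 to 1.52 CPM (-4.08), Npr3, the natriuretic peptide clearance receptor, from 433 to 29.6 CPM (-3.85), and Gdf10, a member of the TGF-β family, from 232 to 23.6 CPM (-3.29). The transcription factor Atoh8 (-3.98), the adenylate cyclase Adcy1 (-3.76), the peptide hormone Apln (-3.57) and Dlk2 (-3.40), a membrane protein with EGF-like repeats, completed the 12 largest falls at 5 CPM or more, together with Sp7, Id1, Id3 and Ccn2. The noncoding H19 went from 4431 to 1695 CPM (-1.38). Among called genes, large gains in CPM outside the immune lists were those of Fth1, the ferritin heavy chain, from 1065 to 2891 CPM (1.44), Nrp2, a semaphorin receptor, from 499 to 1613 CPM (1.70), and Igfbp5, which binds insulin-like growth factors, described further below.

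Notch2 was at 136, 162, 145 and 164 CPM in the vehicle libraries and 209, 211, 240 and 230 CPM in the TNFα libraries, a log2 fold change of 0.55 ± 0.068 (adjusted p = 1.45e-07), with no overlap but short of 2-fold. Of 13 receptors and ligands, Dll1 (1.71) and Jag1 (1.15), both ligands, rose and Lfng (-1.89), a glycosyltransferase that modifies the receptors, fell (median 0.063, 0 with bounds). Of 16 targets and cofactors, 3 fell and 1 rose (median -0.12, -0.0047 with bounds). Over all genes tested 9.20% rose and 4.65% fell. Hes1, a transcriptional repressor and direct Notch target, was at 25.3, 25.8, 22.8 and 23.6 CPM in the vehicle libraries and 4.5, 5.79, 5.67 and 3.03 CPM in the TNFα libraries, and fell by 2.24 ± 0.12 on the log2 scale (adjusted p = 6.3e-15). Hey1, of the same family, was at 8.33, 7.54, 5.96 and 7.55 CPM in the vehicle libraries and 3.18, 2.1, 3.39 and 1.66 CPM in the TNFα libraries, and fell by 1.40 ± 0.18 (adjusted p = 2.25e-07). The groups were apart for both, while Heyl went from 1.95 to 1.7 CPM (adjusted p = 0.425). Hey2 was at 0.413, 1.13, 0.363 and 0.897 CPM in the vehicle libraries and 0.0662, 0.117, 0.175 and 0.276 CPM in the TNFα libraries, which is 3 counts or fewer in every TNFα library, and is given no fold. Dtx4, a ubiquitin ligase of the pathway, rose from 10.1 to 28.7 CPM (1.46). These changes took place in cells whose control over NOTCH2 is altered by the allele in both treatment groups.

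Of a list of 15 genes also measured by qRT-PCR, 6 rose and 4 fell. The list comes from the study, does not hold every gene measured in that way and is no independent evidence of direction. Beside those above, Marco, a scavenger receptor of macrophages, was at 0.551, 0.564, 0.674 and 0.253 CPM in the vehicle libraries and 4.77, 3.63, 4.27 and 1.38 CPM in the TNFα libraries (3.04 on the log2 scale), with the lowest TNFα value in the shallow library 4. Adgre1, which encodes F4/80, was at 7.92, 8.06, 9.13 and 7.13 CPM in the vehicle libraries and 19.1, 17.2, 14.9 and 14.6 CPM in the TNFα libraries (1.07). It was close to the 2-fold limit, with 0.98 without TNFα replicate 1 and 0.99 without vehicle replicate 4. Casp1, the inflammasome protease, went from 0.374 to 2.01 CPM (2.38), and Rac2 from 1.43 to 3.94 CPM (1.45). Vav1, a guanine exchange factor of blood cells, went from 1.32 to 1.63 CPM (adjusted p = 0.204), with the groups overlapping, and Fcer1g (0.79) and Gdf5 (0.60) did not reach the 2-fold limit.

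Of 20 macrophage markers, none was at 0 in all 8 libraries, 6 rose (among them Marco, Aif1, Cd14, Spi1 and Adgre1) and none fell. The 6 were 4 without TNFα replicate 1, where Aif1 and Adgre1 lost their calls, 4 without vehicle replicate 4 (Adgre1 and Spi1), 5 without TNFα replicate 2 (Spi1) and 4 after thinning, and 1 marker was called lower without TNFα replicate 1 (Cd163) and another without replicate 2 (Cx3cr1). Their sum was 207, 195, 200 and 182 CPM in vehicle and 335, 327, 308 and 303 CPM in TNFα libraries, led in vehicle by Lyz2, which went from 74.2 to 88.8 CPM (0.28). The macrophage genes Csf1r (0.51), Cd68 (0.43), C1qa (0.22) and Laptm5 (0.03) did not reach the limit. The part of macrophages in the rise of Marco, Adgre1 and the immune lists was not tested. Of 10 T and NK cell markers, Cd3e, Cd3g, Cd3d, Cd8a, Cd2, Ncr1 and Gzma had no count in any of the 8 libraries, and the sum was 0.828 to 1.31 CPM in vehicle and 1.66 to 3.68 CPM in TNFα libraries, led by Lck. Of 10 neutrophil markers, S100a9, Ly6g and Ngp were at 0 throughout and Camp rose, with sums of 0.138 to 0.616 and 1.38 to 2.46 CPM. Of 8 erythroid markers, 6 were at 0 in all libraries, the globins Hba-a1, Hba-a2, Hbb-bs and Hbb-bt among them. Mast cell markers Cpa3, Tpsb2, Tpsab1, Fcer1a and Ms4a2 were at 0 throughout, and their sum of 26.2 to 28.6 CPM in vehicle and 9.66 to 13.1 CPM after TNFα was led by Gata2, which fell (-1.75), while Hdc, the enzyme that makes histamine, rose from no count to 1.32, 1.11, 0.936 and 1.66 CPM. Of 10 endothelial markers none was at 0, 1 rose, Flt1, a receptor of VEGF, from 7.55 to 76.9 CPM (3.37), and the sum was 28.4 to 32.1 CPM in vehicle and 98.6 to 111 CPM in TNFα libraries. Cdh5 (0.024) and Pecam1 (-0.039), which define endothelium, were not called. Of 10 osteoclast markers, Mmp9, Acp5 and Calcr rose, Acp5 at the 2-fold limit (1.01) and with no call without TNFα replicate 3 or 4 or vehicle replicate 4, and the sum, led by Ctsk, was 238 to 264 CPM in vehicle and 294 to 311 CPM in TNFα libraries. Of 10 smooth muscle markers, 5 fell (sums of 3915 to 4541 and 2071 to 2395 CPM, led by Acta2), and 2 of those that fell, Cnn1 and Actg2, also stand in the list of serum response genes. The part of these cells in the results was not tested. Of 10 skeletal muscle markers 1 fell, Acta1 (-1.43). Of the 14 fibroblast and perichondrium markers, Pdgfra rose (1.55) and none fell. For all these marker lists the share over all genes tested was 9.20% higher and 4.65% lower.

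The control cells had the same treatments, and the question is whether the response differed by genotype. In control cells 2279 of 19338 genes were called (11.8%), 1638 higher and 641 lower, or 2509 (1754 higher and 755 lower) without replicate 4 of both control groups. Control replicate 4 stood apart from its groups in both treatments: on the first principal component of all 16 libraries the control vehicle libraries lay at -49.8, -50.8, -49.2 and -11, and the control TNFα libraries at 45.6, 48.2, 47.8 and 35.5. Counts and interactions that rest on the control cells are therefore given with and without replicate 4 of both control groups. Of the genes that rose in mutant cells, 1267 also rose in control cells, 70.1% of the mutant and 77.4% of the control list, and of those that fell 493 also fell, 54.0% and 76.9%. Without control replicate 4 these numbers were 1345 (74.4% and 76.7%) and 554 (60.7% and 73.4%). Across 10909 genes with a mean of at least 5 CPM, Pearson's r of the log2 fold changes was 0.954, or 0.978 without control replicate 4, across genes that are not independent replicates.

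The difference itself was tested as an interaction of genotype and treatment. It passed an adjusted p under 0.05 in 101 of 21321 genes (0.474%), 57 with a more positive response in mutant cells and 44 with a more negative one, and in 132 of 20955 (0.630%), 74 and 58, without control replicate 4. The balance of the directions turned when 1 library was left out, to 41 and 61 without control vehicle replicate 4, 32 and 38 without control TNFα replicate 2 and 33 and 35 without mutant vehicle replicate 3. Without mutant vehicle replicate 1, which stood apart, 156 genes passed, 81 and 75. Both with all 16 libraries and without control replicate 4, 71 genes passed, all with the same sign. None of the 5 marker genes passed with all 16 libraries, and C3 alone passed without control replicate 4, where its response was smaller in mutant cells (-0.88, adjusted p = 3.09e-09). With all 16 libraries the interaction of C3 had the other sign (0.63, adjusted p = 0.89). Gas7, an actin-binding protein, was at 3.65, 4.36, 3.42 and 4.21 CPM in the vehicle libraries and 52.8, 50, 55.9 and 46.9 CPM in the TNFα libraries in mutant cells and its log2 fold change was 3.71, beside 2.25 in control cells, an interaction of 1.46 (adjusted p = 0.0451), or 1.05 (adjusted p = 2.07e-05) without control replicate 4. In control cells Gas7 was at 7.13, 7.61, 6.43 and 14.2 CPM in vehicle and 45.7, 46.8, 40.8 and 35.4 CPM after TNFα, where the fourth vehicle library held the highest vehicle value. Kcnf1, a modulatory potassium channel subunit, was at 6.82, 6.52, 5.39 and 5.45 CPM in the vehicle libraries and 26.7, 31.6, 30.8 and 22.1 CPM in the TNFα libraries, a log2 fold change of 2.26 beside 1.03, an interaction of 1.23 (adjusted p = 3.56e-05), or 1.17 (adjusted p = 0.000101) without control replicate 4. For both the response was larger in mutant than in control cells. Cdhr1, a cadherin-related protein, had 2.44 beside 1.38 (interaction 1.06, adjusted p = 0.00966, or 1.06, adjusted p = 0.0153, without control replicate 4). Amigo2, an adhesion protein, went the other way, 1.01 beside 2.05 (interaction -1.04, adjusted p = 0.0061, or -1.24, adjusted p = 0.000469, without control replicate 4). Anpep, the aminopeptidase CD13, was at 24.5, 22.3, 21.4 and 27.4 CPM in the vehicle libraries and 35.5, 37.5, 42.1 and 40.6 CPM in the TNFα libraries in mutant cells, a log2 fold change of 0.69, while in control cells it was -0.35, an interaction of 1.04 (adjusted p = 1.09e-06), or 1.07 (adjusted p = 4.22e-07) without control replicate 4. Its mutant groups did not overlap. Igfbp5, named here after its values were seen, was among the most abundant genes that differed: it was at 1308, 1232, 1294 and 1378 CPM in the vehicle libraries and 3082, 3073, 3333 and 3096 CPM in the TNFα libraries in mutant cells, a log2 fold change of 1.27 beside 0.48 in control cells (interaction 0.79, adjusted p = 1.01e-09, or 0.75, adjusted p = 3.09e-09, without control replicate 4). In control cells Igfbp5 was at 2002, 1920, 1943 and 2165 CPM in vehicle and 2797, 2814, 2799 and 2768 CPM after TNFα. For Il6 the interaction was 0.48 (adjusted p = 0.886), or -0.13 (adjusted p = 0.989) without control replicate 4, and for Notch2 it was 0.29 (adjusted p = 0.721), or 0.25 (adjusted p = 0.832), so that neither passed the test.

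**Figure D5:**
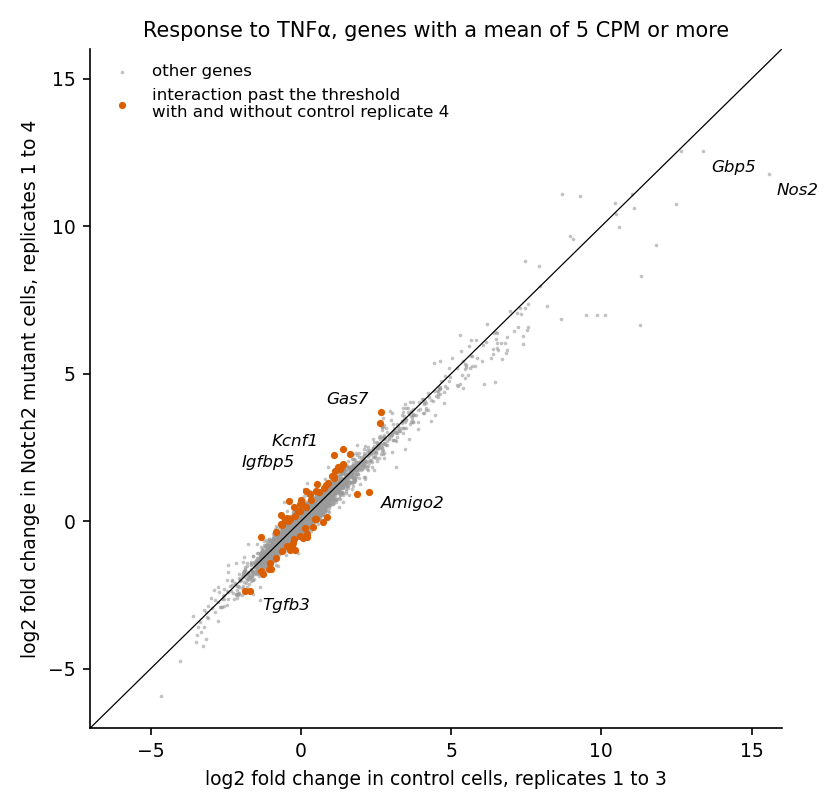
Log2 fold change after TNFα in Notch2 mutant cells (y axis, 4 libraries per group) against that in control cells without replicate 4 (x axis) for 10909 genes with a mean of at least 5 CPM, with the line of equal response. The 69 genes in orange passed the interaction test with and without control replicate 4, and most genes lie near the line.

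Without the shallow TNFα library 4, 2688 genes were called, of which 2574 were among the 2720 (94.6%), with no change of sign. Without TNFα libraries 1, 2 and 3, 87.9%, 87.8% and 86.2% of the 2720 were called again. Of the genes called at a mean under 0.5 CPM, 88.1% were called again without library 4, and of those at 10 to 100 CPM and at 100 CPM or more, 97.7% and 99.1%.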

How the data were processed

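mRNA was sequenced from 16 chondrocyte libraries (4 per genotype and treatment) with a stranded kit as paired reads. The authors deposited raw counts of fragments per Ensembl gene, 1 table per library. Per the labels reads were aligned to GRCm38 with HISAT2 2.1.0 and counted with HTSeq, whereas the study's methods name GRCm39, and the strand setting of the counting is not given in the sources used here, so overlapping and antisense genes are uncertain. Of all counts 8.81% to 12.1% in the mutant libraries named no gene and were left out. Symbols and positions came from GENCODE M39 (GRCm39) by gene ID, which left 665 of 55414 IDs unnamed (0.0182% of counts). RefSeq promoters were matched by symbol.

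Genes with at least 10 counts summed over the libraries of a fit were tested with edgeR 4.0.16 (TMM, robust quasi-likelihood test, R 4.3.3) and Benjamini-Hochberg adjustment, called at an adjusted p under 0.05 and a log2 fold change of at least 1 either way. The interaction was called at an adjusted p under 0.05 in a model of all 16 libraries. Counts were scaled to CPM on 1 TMM scale over all libraries, and to RPKM by exon length. Scripts were tested on simulated data. Where a gene had 3 counts or fewer in every library of a group, its level there was set at 3 counts, which covers counting error only. Labels call the libraries biological replicates and do not tie them to mice, so p-values measure the spread between these libraries. DESeq2 1.42.0, other normalizations and filters, thinning and leaving out libraries were the alternatives.

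The members and gene lists were chosen with earlier results of these data known. Genes named were the 5 markers, the 12 largest rises and falls by fitted fold change at 5 CPM or more with groups apart, the largest gains and losses in CPM among called genes, up to 6 members per list, the 5 largest interactions passing with and without control replicate 4, 15 of the study's qRT-PCR genes and members of runs. Of 214 genes named, 64 lie outside this rule and were chosen after their values were seen. Some members of the lists are not reported here by name.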

Additional observations from a re-analysis of the deposited data

Results flagged for a closer look

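In the groups of 4 libraries given value by value, in mutant and in control cells, the gap from the highest or lowest library to its neighbour, as a share of the group's range, was compared with Dixon's 95% limit for 4 values. 9 of 90 groups passed, and chance alone flags about 1 in 20. The counts on genes of the mutant TNFα libraries passed (0.842), because of library 4. So did Ccl5 after TNFα (0.865), with library 4 the highest, Igfbp5 after TNFα (0.912), with library 3 the highest, and Cxcl10 in vehicle (0.912), with library 3 the highest at 1.97 CPM. Sox9 passed in both groups, with library 4 the highest in vehicle (0.844) and after TNFα (0.845). Acod1 passed in vehicle (1), where it had a count in 1 library. In control vehicle, Gas7 (0.847) and the first principal component of all 16 libraries (0.96) passed, both with replicate 4 the highest.

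The response of 10 named genes differed between mutant and control cells in the interaction test of edgeR, with and without control replicate 4. On the log2 scale the interaction was 1.46 for Gas7, 1.23 for Kcnf1, 1.06 for Cdhr1, 1.04 for Anpep, 0.79 for Igfbp5, 0.33 for Stat3, -0.47 for Tnfrsf11b, -0.68 for Cnn1, -0.90 for Tgfb3 and -1.04 for Amigo2.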

How the results depend on the processing

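The count of 2720 called genes was 2458 with DESeq2, 2034 with filterByExpr, 1972 with all libraries thinned to the shallowest and 2489 to 2705 with 1 library left out, with no gene called in the opposite direction. Without a fold limit it was 8745. The control count of 2279 was 2038 to 2399 with 1 library left out. The interaction count of 101 was 206 with DESeq2 and 51 to 156 with 1 library left out: 51 without mutant TNFα replicate 3, 66 without mutant vehicle replicate 2 and 156 without mutant vehicle replicate 1. Libraries of the same replicate number deviated from their group means with correlations of 0.0403, 0.0143, 0.0467 and 0.00876, and not every library correlated best with its own number, so the number was not taken to pair them. With a replicate block 2572 genes were called, and 74 for the interaction. Of the counts per gene list, 35 of 1290 moved by over 1.5 times.

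Of 214 named genes, 191 kept their direction and call in every alternative run. Genes near 0 that were not called changed sign: Col10a1 (0.01 with filterByExpr, 0.04 thinned, -0.05 to 0.03 with 1 library left out), Pecam1 (0.02 with a replicate block, 0.15 thinned, -0.23 to 0.15), Cdh5 (-0.30 to 0.30), Laptm5 (-0.04 to 0.11), Comp (-0.10 to 0.00), Rel (-0.04 thinned, -0.02 to 0.14) and C1qa (-0.06 thinned). Calls were lost when 1 library was left out, those of Aif1, Gm16464 and Has1 on the adjusted p (0.184, 0.0735 and 0.0548) and the others below on the fold limit. Mutant TNFα replicate 1 ended those of Adgre1 (0.98), Aif1 (1.17), Bmp7 (-0.96), Has1 (1.06), Junb (0.96) and Tnfsf11 (0.94), replicate 2 those of Spi1 (0.96) and Tnfsf11 (0.90), replicate 3 those of Acp5 (0.97), Amigo2 (0.95), Gm16464 (1.17) and Junb (0.98), and replicate 4 that of Acp5 (0.97) and, at the limit itself, that of Mcm2. Vehicle replicate 1 ended those of Amigo2 (0.99) and Mcm2 (-0.99), replicate 2 that of Tnfsf11 (0.97), replicate 3 those of Junb (0.98) and Tnfsf11 (0.87), and replicate 4 those of Acp5 (0.96), Adgre1 (0.99) and Spi1 (0.97). Thinning ended the calls of Lck (1.24), Mef2c (-0.94), Snorc (-0.72), Amigo2 (0.80), Bmp7 (-0.58), Gm16464 (1.28), Has1 (1.24), Junb (0.97) and Spi1 (0.76). Tnfsf11 also lost its call with DESeq2 (0.99), RLE normalization, no filter and all 16 libraries in 1 fit (1.00 in each). The block ended those of Junb (0.99) and Tnfsf11 (1.00) and no other among named genes.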
